A study of Mus musculus with 14 samples.

Results

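The effect of dihydrotestosterone (DHT) that a female and a male cohort of mice share was measured in the spinal cord during experimental autoimmune encephalomyelitis (EAE), in which an immune attack on myelin damages the cord. The 6 DHT libraries of both cohorts were set against the 8 vehicle libraries, with the cohort as an additive term. Each DHT library was thus compared with vehicle libraries of its own cohort, and 1 difference was estimated for both cohorts. These 14 libraries are all of the series, and all 16703 genes of the expression table entered the comparison.

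All 4 groups were gonadectomized C57Bl/6 mice, so that the animals lacked their own gonadal hormones. They were 9 to 10 weeks old before 1 week of acclimatization that preceded EAE, and older when the cords were taken. EAE was induced in every group with a peptide of myelin oligodendrocyte glycoprotein (MOG) in complete Freund's adjuvant, and there is no group without EAE. Ovariectomized females and castrated males received DHT at 0.04 mg per day in an intranasal oleogel, or the vehicle. Treatment began at the onset of symptoms. The study's results text gives 8 days for its comparison of females and males, while its EAE methods state a longer course. Neither states this for the sequenced cords. The table holds 3 female DHT, 4 female vehicle, 3 male DHT and 4 male vehicle libraries of whole cord. Legends of the study give the same numbers, except 1 supplementary legend with 3 per group, while its methods state 4 animals per group. Libraries are named here by the number in their column heading. The study describes a female and a male dataset that it integrated, so sex and dataset cannot be told apart. Nothing in the labels says how the cohorts were sequenced or gives a batch. Nothing in the labels says that each library is a separate animal, and p-values measure the spread between libraries.

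DHT is a potent androgen that, unlike testosterone, is not converted to estradiol. Steroid hormones of this kind enter cells and regulate genes in the nucleus. In EAE, T cells and monocytes enter the cord, microglia become reactive and engulf myelin debris, and neurons, axons and oligodendrocytes are damaged. Whole-cord RNA mixes all of these cells, and fewer cells of a type cannot be told apart from less RNA per cell.

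Values are log2 CPM, the reads of a gene scaled to a fixed library total, and a gene without a read stands at −3.99. Depth after the authors' normalization was 31290267 to 35761972 whole reads in the DHT libraries and 29311155 to 31098108 in the vehicle libraries. Markers of cord were present throughout, with the neuronal gene Snap25 at 10.08 to 11.37, the myelin gene Mbp at 12.63 to 13.50 and Hoxb8, a patterning gene of the trunk, at 6.83 to 7.64. In the deposited values male DHT 3 was unlike its label in sex-linked genes, with Xist at 7.41 and Ddx3y at −2.98. The other male DHT libraries had Xist at −2.18 and −0.14. Female vehicle 3 had Xist at 3.04, against 7.92 to 8.35 in the other female vehicle libraries, with 4 Y-linked genes between 0.18 and 0.77. The values of the 14 libraries are bound to each other along 1 missing direction, so they are not fully independent. Its squared weight falls to 62.8% on male DHT 3 and to 23.7% on female vehicle 3, the same libraries. Whether the sex-linked values of these libraries come from the animals or from this direction was not tested. The main counts, and those of gene groups that moved by more than 1.5 times, are therefore also given without both.

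Libraries separated by treatment in each cohort on a component that does not use the treatment labels. On the first principal component of cohort-centred values, which held 63.3% of the variance, the female DHT libraries scored 113.1, 67.5 and −9.4, against −48.6, −36.3, −22.7 and −63.5 in the female vehicle libraries. The male DHT libraries scored −1.8, 34.4 and 21.4, against −9.7, −17.2, −5.8 and −21.4 in the male vehicle libraries. Every DHT library lay above every vehicle library of its cohort, with male DHT 2 and female DHT 3 nearest to vehicle. The mean difference was 65.7 (exact permutation test within cohorts, two-sided, p = 0.000816, the smallest that it can give). Without both doubted libraries it was 64.2 (same exact test, p = 0.00333).

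**Figure D1:**
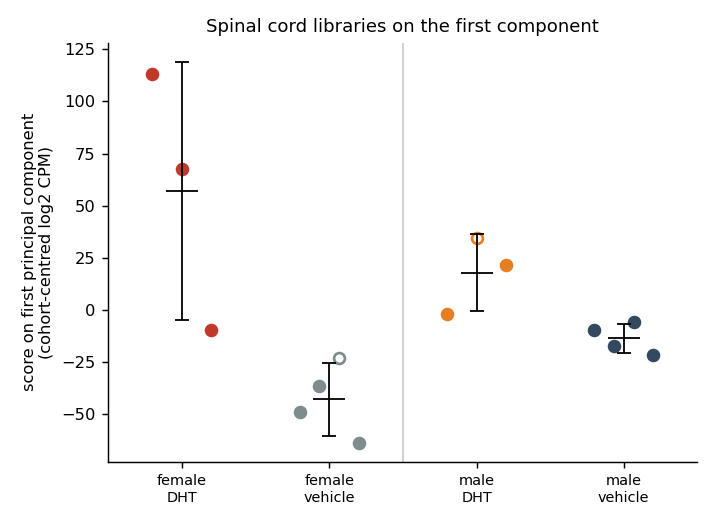
Score of each library on the first principal component (no unit) of expression centred within cohorts, by group, with the mean and SD as bars and female vehicle 3 and male DHT 3 as open symbols. DHT scores run from −9.4 to 113.1 in females and from −1.8 to 34.4 in males, and lie above the vehicle scores of the same cohort.

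Of the 16703 genes, 3470 rose and 3958 fell with DHT (limma, Benjamini-Hochberg adjusted p under 0.05 over all genes, two-sided), which is 20.8% higher, 23.7% lower and 44.5% in either direction. These shares are the background for every gene group that follows. The falls were larger than the rises, as 976 genes fell and 28 rose by at least 2-fold. Among called genes the median log2 fold change was 0.35 for the rises and −0.51 for the falls. The difference had the same sign in both cohorts for 3454 of the rises and 3948 of the falls. In 1405 of the rises and 1589 of the falls, no DHT library overlapped a vehicle library of its cohort, which is 8.41% and 9.51% of all genes, 17.9% together. A rise of at least 1.5-fold in each cohort was measured for 232 called genes, and a fall of that size for 1039. The cohort effects differed for 309 of the 16703 genes (limma, interaction of cohort and DHT, adjusted p under 0.05). At an unadjusted p under 0.05 in the same test they differed for 4672.

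Without both doubted libraries 2942 genes rose and 3165 fell, and 2882 and 3124 of these were among the calls above. Quantile normalization moved the split to 4692 rises and 2929 falls. A covariate (the housekeeping factor) was drawn from 32 housekeeping genes after centring within cohorts. Treatment takes 71.9% of it, as the centring leaves nothing to cohort, so it largely overlaps with DHT. With this covariate limma called 0 genes (1408 higher and 1329 lower at an unadjusted p under 0.05). These 32 were chosen without knowledge of the genes the authors normalized on, which are not given in the sources used here, and 10 of them rose and 9 fell. As CPM are shares of a library, a rise is a rise relative to the other RNA.

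Genes of oligodendrocytes and neurons stood among the 15 largest rises that had no overlap in either cohort and a mean log2 CPM of at least 2. Ugt8a, the enzyme that makes the galactolipids of myelin (chr3:125865271-125938619, minus strand, GRCm38), had 8.63, 8.56 and 8.02 in female DHT libraries, against 7.14, 7.40, 7.87 and 6.88 in female vehicle libraries. Male DHT libraries had 7.03, 8.09 and 7.84, against 6.72, 6.63, 6.52 and 6.30 in male vehicle libraries. All DHT libraries were above the vehicle libraries of their cohort, and the shared log2 fold change was 1.10 (SE 0.18, adjusted p = 0.000939). Opalin, a membrane protein of myelinating oligodendrocytes, rose by 0.94 (SE 0.15). Slc5a7, the transporter that returns choline to cholinergic terminals, rose by 1.09 (SE 0.23, adjusted p = 0.00286). It had 6.63, 6.64 and 6.05 in female DHT libraries, against 4.84, 5.06, 5.84 and 4.78 with vehicle, and 5.68, 5.93 and 5.76 in male DHT libraries, against 4.52, 5.51, 5.44 and 4.17 with vehicle.

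Other neuronal genes of the same ranking were Trhr, the receptor of thyrotropin-releasing hormone, with 0.94, Syt10, a synaptotagmin, with 0.92, Gabrb2, a GABA-A receptor subunit, with 0.90, and Ncam2, an adhesion molecule, with 0.87. Spock3, an extracellular proteoglycan, rose by 1.03, Olfm3, a secreted olfactomedin, by 0.92, and Ttll7, a tubulin polyglutamylase, by 0.88. Klhl4, Tmem196 and Spink10 rose by 1.03, 0.93 and 0.92, and Atp10b, a lipid flippase, by 0.95. Smyd1, a methyltransferase best known from muscle, rose by 1.02. The smallest p-values among the rises belonged to smaller and tighter differences. Nrxn3, a presynaptic adhesion molecule, rose by 0.59 with an SE of 0.06, and Kcnma1, a calcium-activated potassium channel, by 0.59 with an SE of 0.08. Slc35d3, Nrip3 and Mthfd2l rose by 0.72, 0.54 and 0.48, each without overlap in either cohort.

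Genes known from macrophages, lymphocytes and granulocytes stood among the 15 largest falls under the same conditions. Acp5, an acid phosphatase of osteoclasts and activated macrophages (chr9:22126727-22135711, minus strand), had −2.10, 0.02 and 3.70 in female DHT libraries, against 4.5, 3.72, 4.35 and 5.95 with vehicle. In males it had 4.53, 3.30 and 2.55 with DHT, against 5.69, 5.91, 6.05 and 6.14 with vehicle. The female DHT libraries spread over more than 5 log2 units, with female DHT 3 just under the lowest vehicle library. The shared log2 fold change was −3.29 (SE 0.73, adjusted p = 0.00333). Cd68, a lysosomal glycoprotein of macrophages, fell by 2.34 (SE 0.48), Hvcn1, the voltage-gated proton channel of phagocytes, by 2.35 (SE 0.43), and Hpse, the heparanase that cleaves heparan sulfate, by 2.37 (SE 0.50).

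The proteins of inflamed tissue Hp (haptoglobin) and Lcn2 (lipocalin that binds bacterial siderophores) had log2 fold changes of −2.68 and −2.56 (adjusted p = 0.00645 and 0.00724). Clec12a, an inhibitory lectin receptor of myeloid cells, had −2.28, Slamf7, a receptor of several leukocytes, −2.50, Cyp4f18, which degrades leukotriene B4 in neutrophils, −2.51, and Wfdc17, a secreted antiprotease of macrophages, −2.36. Arl11 had −2.37 and Stra6l −2.82. Acp5, Cd4 and Hp differed by −4.09, −4.22 and −3.71 in females and by −2.49, −1.26 and −1.64 in males. With the housekeeping factor 11 of these 15 genes turned sign, and 0 genes were called.

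Of 74 genes for proteins of the cytosolic ribosome, which build the particle that translates every mRNA, 73 fell and 0 rose. Their median log2 fold change was −0.55, where the median of all genes was −0.02. The exception was Rps10, with −0.28 (adjusted p = 0.0742). In 66 of the 74 genes no library overlapped in either cohort, beside 9.51% of all genes in that direction. The falls were small but narrow in range, between −0.93 for Rplp0, a stalk protein of the large subunit, and −0.26. The median was −0.69 in females and −0.43 in males. Their median was −0.12 with the housekeeping factor, and 0 of the 74 were called there.

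Rplp1, a stalk protein of the large subunit (chr9:61913284-61914542, minus strand), had 6.95, 7.0 and 7.46 in female DHT libraries, against 7.84, 7.82, 7.74 and 7.94 with vehicle. It had 7.73, 7.49 and 7.72 in male DHT libraries, against 8.36, 8.40, 8.28 and 8.45 with vehicle. Both cohorts moved by about the same amount, and the shared log2 fold change was −0.71 (SE 0.08, adjusted p = 0.000811). Rps21, Rpl36, Rps29 and Rps19 fell by 0.55, 0.64, 0.68 and 0.84, with SEs of 0.06 to 0.10. Many processed copies of these genes exist in the mouse genome, so the assignment of their reads is uncertain.

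Most mRNAs for ribosomal proteins begin with a run of pyrimidines, the terminal oligopyrimidine tract, through which growth signals are known to control their translation. Promoters were read from RefSeq (GRCm38.p6), where 54 of the 74 genes matched, and those of 4 genes that fell are shown because they carry this start. Each stretch reads 5′ to 3′ on the strand of the gene, from 25 bases before to 25 bases from the annotated start, with the unbroken run of C and T from that start in capitals.
Rps21 (chr2:180257354-180257403, plus strand): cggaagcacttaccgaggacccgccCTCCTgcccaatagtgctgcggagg
Rplp2 (chr7:141447626-141447675, plus strand): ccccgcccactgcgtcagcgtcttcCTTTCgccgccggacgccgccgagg
Rpl38 (chr11:114668555-114668604, plus strand): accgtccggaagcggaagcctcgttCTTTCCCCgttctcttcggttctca
Rps27 (chr3:90213624-90213673, minus strand): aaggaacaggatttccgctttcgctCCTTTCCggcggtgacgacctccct
Rps21, Rplp2, Rpl38 and Rps27 fell by 0.55, 0.79, 0.43 and 0.65. A start with at least 5 such letters stood in 16 of the 54 promoters (29.6%), in 5.26% of the 12971 promoters of all measured genes, and in 6.09% and 5.28% of those of genes that fell and rose. The start annotated by RefSeq can lie a few bases from the one used in these cords.

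Gene groups of other housekeeping machines had smaller shared medians. Of 44 nuclear subunits of oxidative phosphorylation, the respiratory complexes of mitochondria, 7 rose and 9 fell, with a median of 0.00. Of 31 proteasome subunits 3 rose and 7 fell, with a median of −0.07, and without female DHT 2 the number that fell was 4, while 5 rose without female vehicle 2. The 30 genes of heat shock and the unfolded protein response gave 7 rises and 3 falls. Medians of the proteasome genes were −0.22 in females and 0.08 in males, and those of the heat shock group −0.11 and 0.19. In males the mean log2 CPM of each of these groups was higher in every DHT library than in every vehicle library. These differences between the cohorts were not tested. Of 23 genes of glycolysis and lactate transport, 12 fell and 4 rose, but without female DHT 2, and likewise without both doubted libraries, 7 fell.

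**Figure D2:**
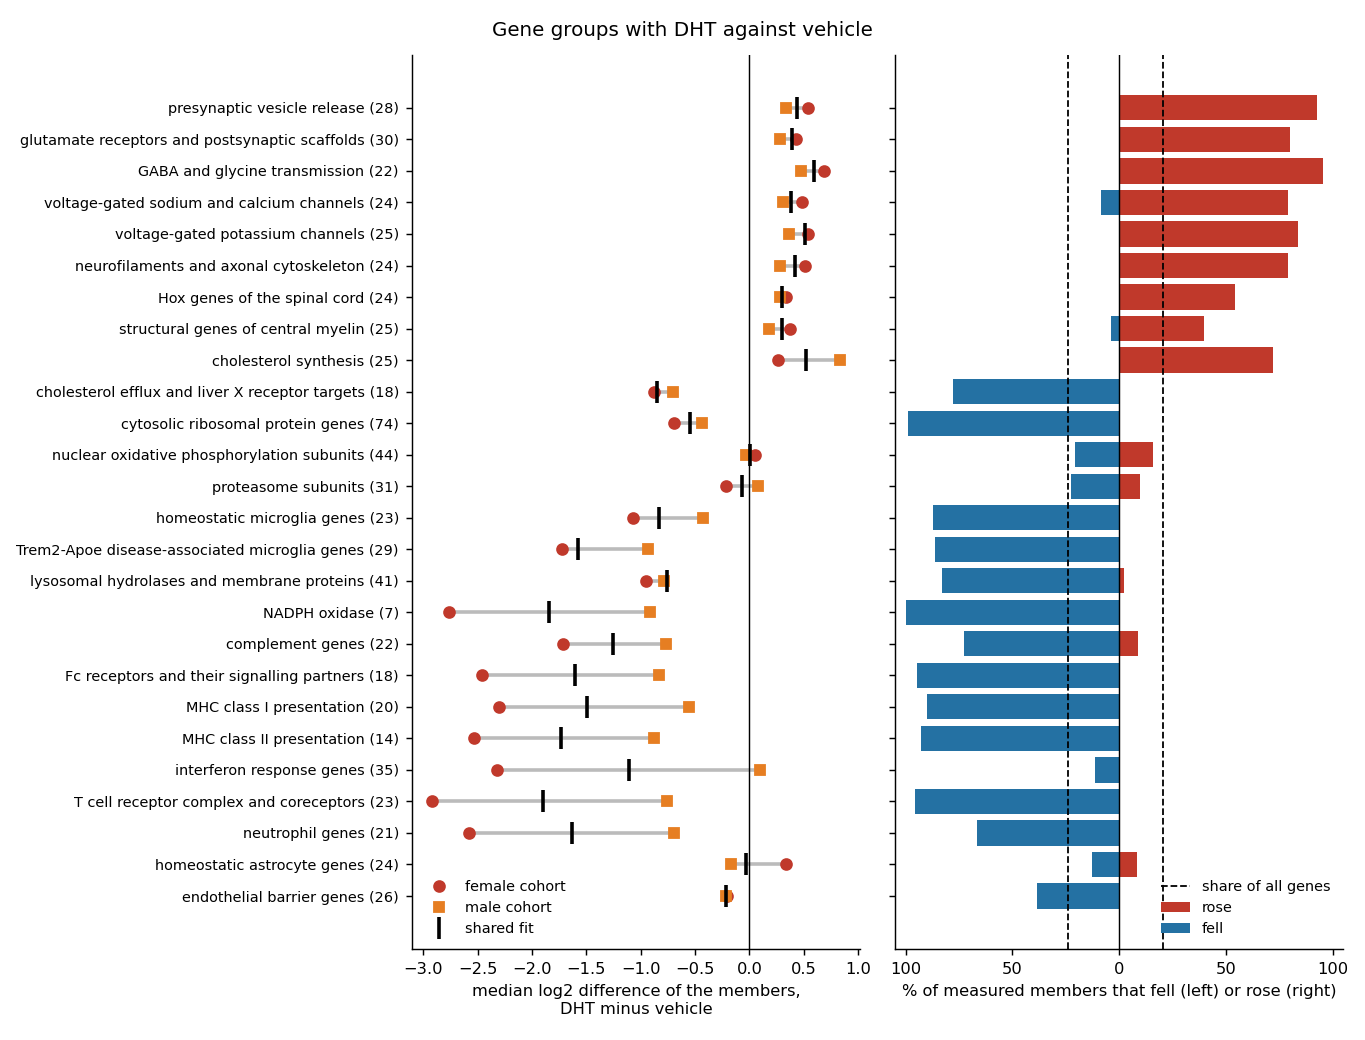
Left, median log2 fold change (DHT over vehicle) of each gene group in females (circles) and in males (squares), with the shared value as a tick. Right, percent of measured members that rose (to the right) or fell (to the left), with dashed lines at the shares of all genes, 20.8% and 23.7%. Groups of synapse and ion channel lie at the rising end, and 73 of 74 ribosomal protein genes fell.

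Genes of synaptic transmission rose together. Of 28 genes of presynaptic vesicle release 26 rose and 0 fell, with a median log2 fold change of 0.43. Snap25, a SNARE protein that fuses vesicles with the membrane (chr2:136713453-136782428, plus strand), had 11.37, 11.31 and 10.88 in female DHT libraries, against 10.44, 10.58, 10.76 and 10.33 with vehicle. Male DHT libraries had 10.82, 10.90 and 10.79, against 10.23, 10.20, 10.38 and 10.08 in male vehicle libraries. No library overlapped in either cohort, and the shared log2 fold change was 0.63 (SE 0.09, adjusted p = 0.000811). Syt1, the calcium sensor of fast release, rose by 0.66, Rab3c, a small GTPase of vesicles, by 0.64, Rims1, a scaffold of the active zone, by 0.57, and Napb, which helps to take SNARE complexes apart, by 0.47.

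Inhibitory transmission gave the highest median of the synaptic groups, as 21 of 22 genes of GABA and glycine signalling rose with a median of 0.59. Glrb, the subunit that anchors glycine receptors, the main inhibitory receptors of the cord, had 8.38, 8.28 and 7.92 in female DHT libraries, against 7.23, 7.45, 7.65 and 7.04 with vehicle. It had 7.54, 7.82 and 7.66 in male DHT libraries, against 6.87, 6.95, 7.19 and 6.70 with vehicle. Again the groups did not overlap, and Glrb rose by 0.80 (SE 0.11, adjusted p = 0.000811). Of 30 genes of glutamate receptors and postsynaptic scaffolds 24 rose and 0 fell, with a median of 0.39. Among these, Gria4, an AMPA receptor subunit, rose by 0.68, Grm5, a metabotropic receptor, by 0.76, and Grin2a, an NMDA receptor subunit, by 0.71.

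Ion channels and axonal genes showed the same direction. Of 25 voltage-gated potassium channel genes 21 rose and 0 fell, with a median of 0.51, led by Kcnh7 with 0.87 and Kcnb2 with 0.84. Of 24 sodium and calcium channel genes 19 rose and 2 fell. Scn1a and Scn2a, which carry the sodium current of action potentials, rose by 0.77 and 0.55, and the calcium channel subunit Cacnb4 by 0.74. The 2 falls were Cacna1d with −0.16 and Cacnb3 with −0.22, and neither was called after quantile normalization, nor was Cacnb3 without female DHT 2. Of 24 genes of neurofilaments and the axonal cytoskeleton 19 rose, such as Kif5c, a motor of axonal transport, with 0.58 and Ank3, the scaffold of the axon initial segment, with 0.57.

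Motor neuron genes were less uniform. Of 20 cholinergic and motor neuron genes 8 rose and 12 did not pass, with a median of 0.32. Besides Slc5a7, Esrrg, a nuclear receptor that marks gamma motor neurons, rose by 0.74 and Chodl, a lectin of fast motor neurons, by 1.06, although Chodl overlapped between groups and had an SE of 0.30. Of 24 Hox genes, which set the position of neurons along the cord, 13 rose and 0 fell with a median of 0.30. Hoxb9 rose by 0.50 and Hoxb8 by 0.38. With the housekeeping factor, under which 0 genes were called, the medians of these neuronal groups came close to 0, at 0.030 for vesicle release, 0.077 for GABA and glycine signalling, 0.065 for glutamate receptors, 0.016 for potassium channels, 0.046 for sodium and calcium channels, 0.059 for axonal genes, 0.015 for motor neuron genes and 0.0054 for Hox genes.

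The summed level of 15 nerve root genes (log2 of the summed CPM) ranged over 9.09 to 11.5 in DHT libraries and 8.85 to 10.9 in vehicle libraries, and 1 of the 15 rose. That count was 5 without male DHT 2, 2 without female vehicle 2 or male vehicle 4, and 0 without both doubted libraries. For 13 sensory ganglion genes the sum ranged over 6.13 to 6.75 with DHT and 5.89 to 6.76 with vehicle, and 3 rose. The number that rose was 5 without female vehicle 3 and 1 without female DHT 2, female vehicle 2 or female vehicle 4. A sum follows its most abundant members, and weighing each ganglion gene alike set some libraries apart. Averaged in this way, log2 CPM came to 0.46, 0.28 and 1.80 for females on DHT. Females on vehicle stood at 0.01, 0.09, 1.74 and −0.04. Male DHT 2, 3 and 4 reached 0.20, 0.90 and 1.91, while males on vehicle lay between −0.06 and 0.20. For 14 muscle and red cell genes the sum ranged over 5.37 to 7.46 with DHT and 3.67 to 7.31 with vehicle. Of these 14, 0 passed, with at most 2 in any fit that left out 1 library. Scn10a, a sodium channel of ganglion neurons, had a log2 fold change of 2.42 that did not pass (adjusted p = 0.0762). It was at or near the level without reads in some libraries. The part of attached root or ganglion in the neuronal rises was not tested.

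**Figure D3:**
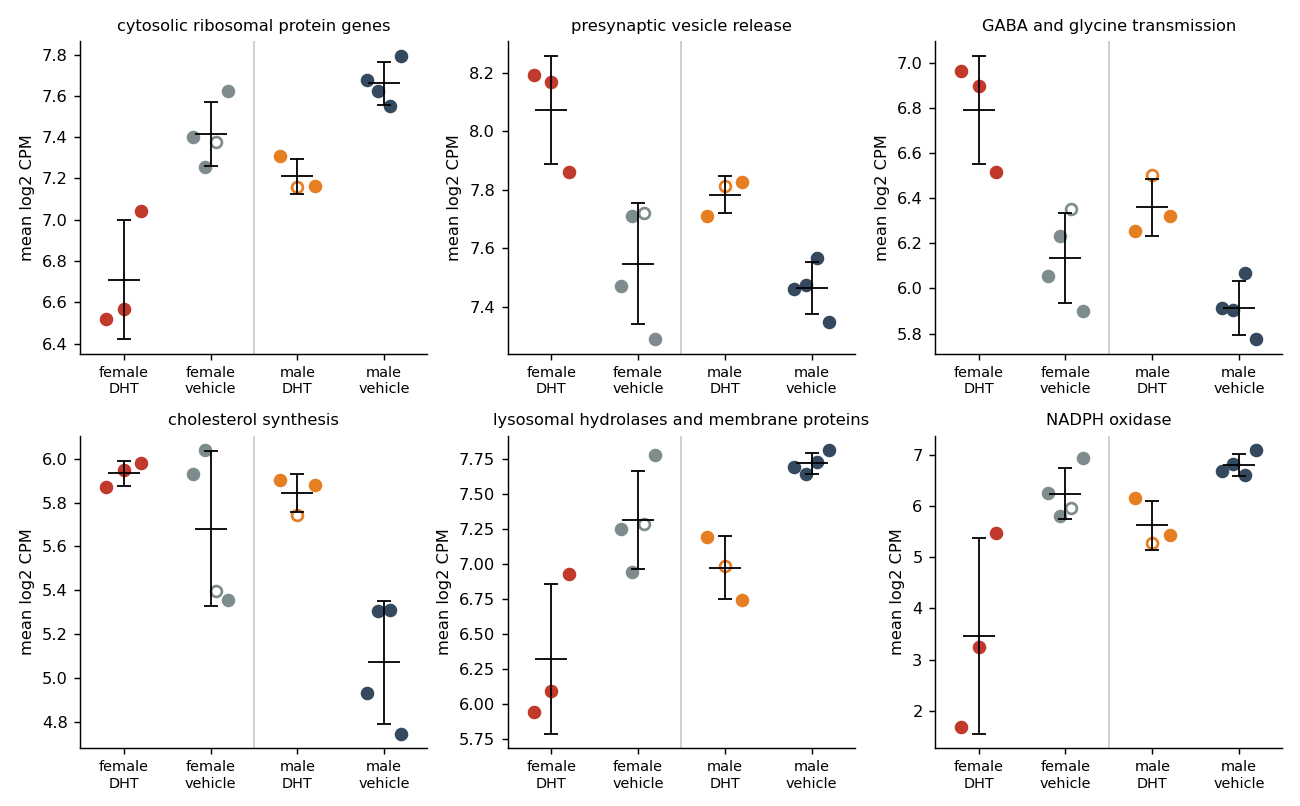
Mean log2 CPM of the members of 6 gene groups in each library, with the group mean and SD as bars and the 2 doubted libraries as open symbols. In each panel the DHT libraries of a cohort stand left of its vehicle libraries, and the female DHT libraries spread most in NADPH oxidase genes.

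Myelin genes rose in part. Of 25 structural genes of central myelin 10 rose and 1 fell with a median of 0.30, and without male DHT 2 the number that rose was 16. Besides Ugt8a and Opalin, Fa2h, which hydroxylates the fatty acids of myelin lipids, rose by 0.70 (SE 0.11, adjusted p = 0.000892) and Ermn, a cytoskeletal protein of mature oligodendrocytes, by 0.66 (SE 0.13). The abundant myelin protein gene Mbp did not pass (0.21, adjusted p = 0.225) and stood at −0.08 after quantile normalization. Apod, a lipid-binding lipocalin that was called against this direction, fell by 1.04. Of 22 genes of oligodendrocyte precursors 4 rose, 2 fell and 16 did not pass. The rises were 2 without female DHT 2 or male DHT 4. The falls were 4 without female vehicle 2, and 1 without female DHT 2, female DHT 3, female vehicle 3, male DHT 4, male vehicle 1 or both doubted libraries. The median of the myelin genes was 0.018 with the housekeeping factor.

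Genes of cholesterol synthesis and of cholesterol export moved in opposite directions. Of 25 genes of cholesterol synthesis, a pathway that myelin formation draws on, 18 rose and 0 fell with a median of 0.52. The median was 0.27 in females and 0.83 in males, a difference that was not tested. In 2 of the 25 genes no library overlapped in either cohort, beside 8.41% of all genes in that direction. The mean log2 CPM of the group was 5.87 to 5.98 in female DHT libraries, against 5.93, 6.04, 5.40 and 5.35 in female vehicle 1 to 4. In males it was 5.74 to 5.90 with DHT, against 4.75 to 5.31 with vehicle. Hmgcs1, which makes the precursor of mevalonate, had 9.33, 9.46 and 9.34 in female DHT libraries, against 9.22, 9.38, 8.48 and 8.33 with vehicle. In males it had 9.14, 9.10 and 9.02 with DHT, against 7.53, 7.99, 8.06 and 7.15 with vehicle. The female groups overlapped and the male groups lay apart, and Hmgcs1 rose by 0.96 (SE 0.21, adjusted p = 0.00345). Insig1, which restrains the pathway when sterols are high, rose by 0.67, and the late enzyme gene Sc5d by 0.77.

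By contrast, 14 of 18 genes of cholesterol efflux and liver X receptor targets fell and 0 rose, with a median of −0.85. Mylip, the ligase that removes the LDL receptor when sterols are plentiful, had 3.86, 3.64 and 4.20 in female DHT libraries, against 4.72, 4.66, 4.92 and 5.39 with vehicle. Male DHT libraries had 4.47, 4.58 and 4.15, against 5.44, 5.22, 5.45 and 5.72 in male vehicle libraries. The groups did not overlap and Mylip fell by 1.04 (SE 0.13, adjusted p = 0.000811). Npc2, which carries cholesterol out of lysosomes, fell by 1.03, Lpl, a lipoprotein lipase, by 0.96, Lpcat3, a phospholipid remodelling enzyme, by 0.59, and Nr1h2, the liver X receptor β itself, by 0.31.

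Fatty acid genes followed the synthesis side. Of 16 genes of fatty acid synthesis and desaturation 9 rose and 1 fell, and 2 fell without female DHT 1 or female vehicle 2. Elovl6 and Elovl7, which lengthen fatty acids, rose by 0.76 and 0.62, the desaturase Scd2 by 0.39 and Acly, which supplies acetyl-CoA, by 0.33. The gene that fell was Srebf1, a transcription factor of lipid synthesis and itself a liver X receptor target, with −0.58 (SE 0.11, adjusted p = 0.00178). Medians with the housekeeping factor were 0.76 for cholesterol synthesis, −0.49 for efflux and 0.049 for fatty acid genes.

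Microglial genes fell, in the resting and the reactive set alike. Of 23 homeostatic genes 20 fell and 0 rose with a median of −0.83. Cx3cr1, the fractalkine receptor, had 5.31, 5.75 and 6.67 in female DHT libraries, against 7.23, 6.75, 7.07 and 7.53 with vehicle, and 6.72, 6.75 and 6.30 in male DHT libraries, against 7.81, 7.65, 7.44 and 8.03 with vehicle. It fell by 1.19 without overlap (SE 0.19, adjusted p = 0.00087), and Cst3, the protease inhibitor cystatin C, by 0.83. Of 29 genes of the Trem2-Apoe disease-associated state, which microglia take on when they clear lipid debris, 25 fell and 0 rose with a median of −1.58.

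Trem2, the lipid receptor that drives this state, had 2.66, 2.87 and 4.51 in female DHT libraries, against 5.05, 4.34, 5.5 and 6.32 with vehicle. In males it had 5.16, 4.62 and 4.05 with DHT, against 6.89, 6.46, 6.71 and 7.29 with vehicle. The male groups lay apart, while female DHT 3 overlapped female vehicle 2, and Trem2 fell by 2.09 (SE 0.34, adjusted p = 0.000885). Axl, a receptor for the engulfment of dying cells, fell by 1.15, Cd63, a tetraspanin of late endosomes, by 0.94, and Csf1r, the receptor that microglia need to survive, by 1.45. Of 27 genes of infiltrating monocytes and macrophages 14 fell and 13 did not pass, with a median of −1.38. The median was −2.70 in females and −0.39 in males. Leaving out female DHT 2 brought the falls to 7, and they were 9 without female vehicle 3, female vehicle 4 or both doubted libraries. Adgre1, which encodes F4/80, fell by 2.11 and F13a1, a transglutaminase of monocytes, by 1.98.

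Lysosomal genes fell. Of 41 lysosomal hydrolases and membrane proteins 34 fell and 1 rose, with a median of −0.76. Ctsd, the aspartyl protease cathepsin D, had 7.29, 7.10 and 8.58 in female DHT libraries, against 9.04, 8.51, 9.61 and 10.36 with vehicle. Male DHT libraries had 8.88, 8.86 and 8.10, against 10.72, 10.39, 10.61 and 10.90 in male vehicle libraries. Female DHT 3 lay just above female vehicle 2 and the male groups lay apart, and Ctsd fell by 1.88 (SE 0.29, adjusted p = 0.00082). Ctsb, cathepsin B, fell by 1.16, and Neu1, a sialidase, by 0.36. The gene that rose was Ids, which degrades heparan and dermatan sulfate, with 0.53 and no overlap.

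The proton pump that acidifies lysosomes and synaptic vesicles was divided, with 5 of 17 genes higher and 7 lower. Atp6v0d2, a subunit of osteoclasts and macrophages, fell by 3.83 (SE 0.80), Atp6v0e by 0.66 and Atp6v0c by 0.40, while Atp6v1a rose by 0.25 and Atp6v1d by 0.18. Many lysosomal genes carry a coordinated lysosomal expression and regulation element, which TFEB is known to bind. Its core, TCACGTGA, was searched in the RefSeq promoters from 250 bases before to 50 after each start, where it reads the same on both strands. The stretches that hold it in 3 genes that fell and 1 that rose are shown, with each copy of the core in capitals, and that of Ctsa holds it at 2 places.
Ctsa (chr2:164833739-164833788, plus strand): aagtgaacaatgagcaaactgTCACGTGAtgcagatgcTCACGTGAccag
Ctsd (chr7:142387898-142387947, minus strand): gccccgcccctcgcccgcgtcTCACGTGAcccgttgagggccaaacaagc
Atp6v0e (chr17:26676377-26676420, plus strand): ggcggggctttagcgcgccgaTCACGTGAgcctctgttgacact
Atp6v1a (chr16:44139363-44139412, minus strand): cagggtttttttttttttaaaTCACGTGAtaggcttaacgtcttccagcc
The core stood in 4 of 33 promoters of lysosomal hydrolases and membrane proteins (12.1%) and in 3 of 11 of the proton pump (27.3%), beside 1.90% of all 12971 promoters, 2.13% of those of genes that fell and 1.88% of those of genes that rose. Ctsa, the protective protein of lysosomal sialidase, fell by 1.10, so genes with this core moved both ways.

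Genes of phagocyte effector systems fell. All 7 genes of the NADPH oxidase, which makes the oxidative burst, fell, with a median of −1.84 (−2.76 in females, −0.91 in males). Cyba, its membrane subunit p22phox, had 1.83, 3.12 and 5.64 in female DHT libraries, against 6.47, 5.90, 5.98 and 7.14 with vehicle, and 6.35, 5.23 and 5.49 in male DHT libraries, against 7.11, 7.30, 7.11 and 7.58 with vehicle. It fell by 2.22 without overlap (SE 0.48, adjusted p = 0.00309), and the catalytic subunit Cybb by 2.59 (SE 0.69). Of 22 complement genes 16 fell and 2 rose with a median of −1.25. The 3 chains of C1q, which starts the classical pathway, C1qa, C1qb and C1qc, fell by 1.82, 1.77 and 1.84, and C3, the hub of all pathways, by 1.65. The rises were Masp1, a protease of the lectin pathway, with 0.44 and Cd55, which protects host cells from complement, with 0.59.

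Of 18 Fc receptors and their signalling partners 17 fell, among them Tyrobp by 1.96 and Fcer1g by 1.82, the adaptors of many activating receptors. Of 29 Toll-like receptor and interleukin 1 genes 15 fell and 1 rose. Tlr2, a receptor of bacterial lipoproteins, fell by 1.99. The rise, Il1rap, the shared chain of interleukin 1 receptors, with 0.44 (adjusted p = 0.0404), was lost in 8 of the 14 fits that left out 1 library. Fc receptor genes that fell numbered 11 without female DHT 2 or both doubted libraries. The median of Fc receptor genes was −2.46 in females and −0.83 in males. For Toll-like receptor and interleukin 1 genes it was −2.15 in females and −0.28 in males. With the housekeeping factor, under which 0 genes were called, the medians turned to 0.70 for NADPH oxidase, 0.21 for complement genes, 0.75 for Fc receptors, 0.86 for Toll-like receptor genes, 1.09 for monocyte genes and 0.03 for homeostatic microglia genes, and were −0.20 for lysosomal hydrolases and −0.03 for disease-associated genes.

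Antigen presentation fell for both classes. Of 14 genes of MHC class II, which presents peptides to helper T cells, 13 fell with a median of −1.74, led by Cd74, its invariant chain, with −2.30, H2-Aa with −2.28 and H2-Eb1 with −2.08. Of 20 genes of MHC class I 18 fell with a median of −1.5, such as H2-D1 by 1.80 and H2-K1 by 1.92. The class I median was −2.30 in females and −0.56 in males, and that of class II −2.54 and −0.88. Fewer class I genes passed without female DHT 2 (8 of 20) and without both doubted libraries (7 of 20). Genes of the H2 family are alike in sequence, so reads may be shared among them. Of 35 interferon response genes 4 fell and 31 did not pass, and the median was −1.11, with −2.32 in females and 0.09 in males. The count of falls changed with single libraries and was 16 without female DHT 3 and 15 without male DHT 2. It was 2 without female DHT 1, female DHT 2, female vehicle 1, female vehicle 4, male DHT 3 or both doubted libraries. Those that fell included Irf8, a regulator of myeloid cells, with −1.57.

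T cell genes were lower with DHT. Cd4, the helper T cell co-receptor that binds MHC class II (chr6:124864692-124888221, minus strand), had −3.45, 0.17 and 3.07 in female DHT libraries, against 4.19, 3.87, 3.69 and 4.85 with vehicle. In males it had 3.98, 2.88 and 2.88 with DHT, against 4.37, 4.44, 4.33 and 4.88 with vehicle. Each DHT library was below the vehicle libraries of its cohort, which the ranking of largest falls that holds Cd4 required. The shared log2 fold change was −2.74 (SE 0.82, adjusted p = 0.0159). Of 23 genes of the T cell receptor complex and coreceptors 22 fell with a median of −1.90, and 13 without both doubted libraries. The median was −2.92 in females and −0.76 in males. Zap70, the kinase of the T cell receptor, fell by 1.48, Cd5, which dampens that receptor, by 2.46, Tcf7, a factor of resting and memory T cells, by 0.82, and Lag3, an inhibitory receptor, by 1.73. Lag3 is also made by some neurons. Of 14 genes of B and plasma cells 4 fell, and of 15 of cytotoxic lymphocytes 6. The median of the cytotoxic genes was −2.30 in females and −0.08 in males.

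Of 21 neutrophil genes 14 fell, and 9 without both doubted libraries. Csf3r, the receptor of the growth factor of neutrophils, fell by 1.73, and Elane, the elastase of immature neutrophils, by 2.29 with low levels throughout. Of 31 chemokines and chemokine receptors 15 fell and 1 rose. Ccl5, which draws T cells, fell by 2.95 and Cxcr4, which holds leukocytes in marrow and tissue, by 2.0. The rise, Cx3cl1, the neuronal ligand of Cx3cr1, with 0.22, was lost in 11 of the 14 fits that left out 1 library. Of 18 vascular adhesion molecules and leukocyte integrins 10 fell, and 4 without female DHT 2. In females the median was −2.58 for neutrophil genes, −2.73 for chemokine genes and −1.94 for adhesion genes. In males these medians were −0.69, −0.25 and −0.20. Vcam1, which leukocytes bind on inflamed vessels, fell by 0.90, and Alcam, an adhesion molecule of endothelium and neurons, rose by 0.41. With the housekeeping factor the medians turned to 0.35 for MHC class II, 0.72 for MHC class I, 0.82 for T cell genes, 0.17 for neutrophil genes, 1.02 for chemokines, 0.76 for adhesion molecules, 1.68 for interferon response genes and 0.98 for cytotoxic lymphocyte genes.

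**Figure D4:**
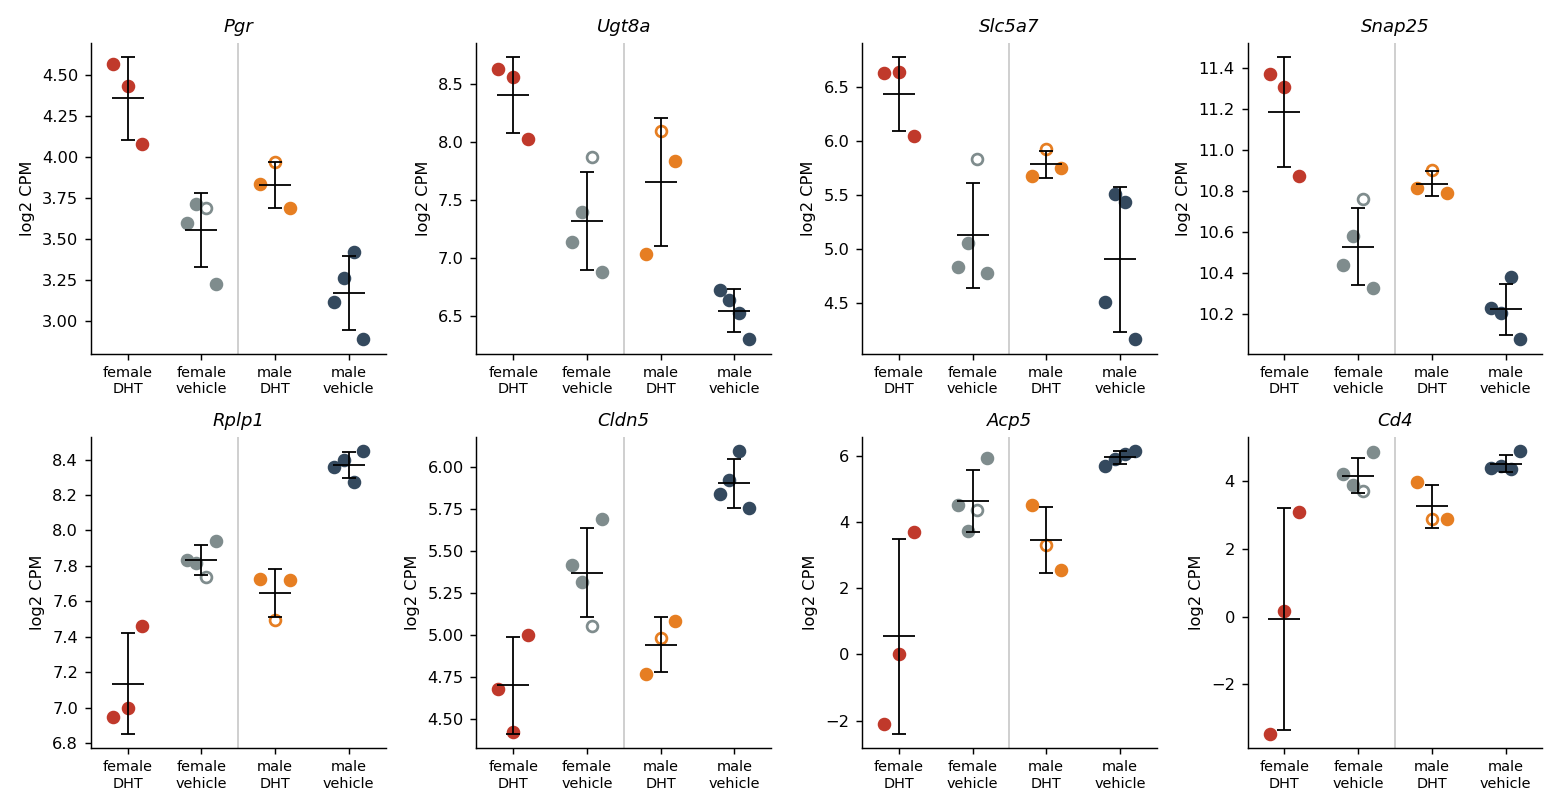
log2 CPM of 8 genes in each library, with the group mean and SD as bars and the 2 doubted libraries as open symbols. Pgr, Ugt8a, Slc5a7 and Snap25 are higher and Rplp1, Cldn5, Acp5 and Cd4 lower in every DHT library than in the vehicle libraries of its cohort. Ugt8a, Slc5a7, Acp5 and Cd4 come from rankings that required this.

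Of 24 homeostatic astrocyte genes 2 rose and 3 fell with a shared median of −0.03, which was above 0 after quantile normalization. The median was 0.34 in females and −0.17 in males, a difference that was not tested. The mean log2 CPM of the group was 8.11 to 8.24 in female DHT libraries, against 7.67 to 7.97 with vehicle. In males these genes had 7.85 to 8.04 with DHT, against 8.09 to 8.22 with vehicle. Their rises were 6 without male DHT 2, 1 without female DHT 1, female vehicle 3 or both doubted libraries, and 0 without female DHT 2 or male DHT 4. Their falls were 5 without female DHT 3 or female vehicle 2. Slc1a3, a glutamate transporter, fell by 0.31. Of 34 reactive astrocyte genes 9 fell and 25 did not pass, with a median of −0.81 that was −1.40 in females and −0.02 in males. The falls were 16 without female DHT 3, and 5 without female DHT 2 or both doubted libraries. The median of the reactive genes turned to 0.88 with the housekeeping factor. Gfap, the main intermediate filament of astrocytes, fell by 0.49 (SE 0.19, adjusted p = 0.0467), and this was lost in 10 of the 14 fits that left out 1 library. Vim, an intermediate filament also found in macrophages and vessels, fell by 1.23, and Serping1, the inhibitor of C1, by 1.29.

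In the vascular wall, 10 of 26 endothelial barrier genes fell and 0 rose, with a median of −0.22, and 6 fell without male DHT 3 and 1 rose without male DHT 2. Cldn5, the main claudin of the blood-brain barrier (chr16:18776847-18778262, plus strand), had 4.68, 4.42 and 5.0 in female DHT libraries, against 5.42, 5.32, 5.05 and 5.69 with vehicle. Male DHT libraries had 4.76, 4.98 and 5.08, against 5.84, 5.92, 6.09 and 5.75 in male vehicle libraries. Its fall of 0.82 (SE 0.11, adjusted p = 0.000811) had no overlap in either cohort. Foxq1, a transcription factor, fell by 0.45. Pecam1, a general marker of endothelium, had −0.24 and did not pass (adjusted p = 0.221).

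Of 23 genes of steroid receptors and androgen metabolism 8 rose and 6 fell. Pgr, the progesterone receptor, had 4.57, 4.43 and 4.08 in female DHT libraries, against 3.6, 3.71, 3.69 and 3.22 with vehicle. It had 3.84, 3.97 and 3.69 in male DHT libraries, against 3.12, 3.27, 3.42 and 2.89 with vehicle. No library overlapped in either cohort, and Pgr rose by 0.73 (SE 0.11, adjusted p = 0.00082). Nr3c2, the mineralocorticoid receptor, rose by 0.46. The chaperone gene Hsp90aa1, its partner Fkbp4 and the coactivator Ncoa1, which serve several steroid receptors, rose by 0.43, 0.33 and 0.26.

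Among enzymes, Srd5a3, of the steroid reductase family but known for its part in protein glycosylation, fell by 0.64, Hsd17b1, Hsd17b11 and Hsd17b10, dehydrogenases of steroids or other lipids, by 0.82, 0.34 and 0.22, and Tspo, a mitochondrial protein that also marks reactive microglia, by 1.5. Star, which brings cholesterol into mitochondria, fell by 0.49 and Cyp11a1, which makes pregnenolone, rose by 0.45, both at low levels. Akr1c14, which reduces DHT further, had 0.73 (adjusted p = 0.0397), lost in 9 of the 14 fits that left out 1 library. Hsd17b10 was lost in 2 of them.

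Of 27 genes known to respond to steroids 2 rose and 6 fell. The rises were Klf9 with 0.30 and the amino acid transporter Slc38a2 with 0.22. The falls were Lcn2, Txnip, an inhibitor of thioredoxin (−1.06), the metallothioneins Mt1 and Mt2 (−0.91 and −0.89), Nfkbia, the inhibitor of NF-κB (−0.86), and the sulfotransferase Sult1a1 (−0.53). Mt2 and Sult1a1 were each lost in 8 of the 14 fits that left out 1 library, and Klf9 in 2. The palindromic androgen response element, AGAACA and its reverse complement 3 bases apart, was searched on both strands. It stood in 1 of the 12971 promoters, and in 0 of those of genes that rose or fell. With so few exact matches over all promoters, the search could not tell genes that moved from the others. Of 25 neurotrophins and growth factors 10 rose and 2 fell. The falls were 1 without both doubted libraries and in 8 of the 14 fits that left out 1 library. Fgf9 and Fgf13 rose by 0.64 and 0.63, and Nrg1 and Nrg3, ligands of ErbB receptors, by 0.59 and 0.55. Pdgfb, a growth factor of endothelium for pericytes, fell by 0.54, and Fgf2 by 0.78 (adjusted p = 0.043).

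Genes that rose were longer than genes that fell. The median genomic length (GENCODE M21, GRCm38) was 50.4 kb for the rises, 15.6 kb for the falls and 22.4 kb for genes not called, with a length found for 97.9% to 98.5% of each. In 5 equal classes of length, from short to long, 9.80%, 12.2%, 17.5%, 24.5% and 39.8% of the genes rose, and 32.6%, 30.1%, 24.5%, 19.8% and 11.97% fell. Groups of synaptic and channel genes had median lengths of 60.1 to 151 kb, and ribosomal protein genes 3.47 kb. Hox genes, of which 13 of 24 rose, had a median length of 6.25 kb, and oxidative phosphorylation subunits, of which 7 of 44 rose and 9 fell, one of 7.57 kb. The part of gene length in the calls was not tested.

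**Figure D5:**
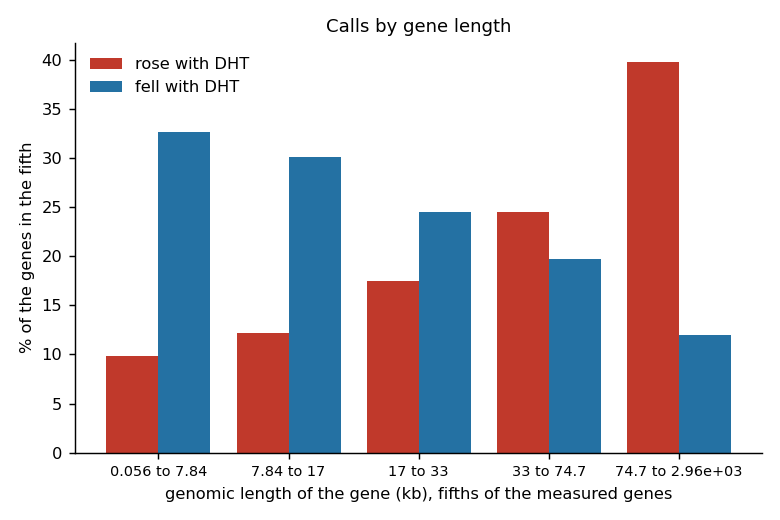
Percent of genes that rose and that fell with DHT in 5 equal classes of genomic length (kb), from the shortest at the left. In the shortest class 9.80% rose and 32.6% fell, and in the longest 39.8% rose and 11.97% fell.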

How the data were processed

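Whole-cord RNA was sequenced in 14 libraries made with the NEBNext Ultra II Directional kit. The authors trimmed reads with fastp, mapped and counted them to mm10 with DRAGEN and the GENCODE annotation, and normalized with edgeR and RUVSeq on housekeeping genes, per the methods and the processing notes, which also name FastQC and Picard. The deposited values are log2 CPM, that is the log2 of CPM plus a prior, and resolve into whole reads within 0.05 for 100% of values. A further 30 deposited columns hold fold changes, p-values and adjusted p-values of 6 comparisons and were not used.

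limma 3.58.1 (R 4.3.3, eBayes with a trend) was fitted to these log2 values with cohort and treatment as terms, over all 16703 genes with no filter or further pseudocount and 11 residual degrees of freedom. Depth after normalization was 29311155 to 35761972 reads, and precision was taken from the spread between libraries. Groups came from the labels, and the table's columns carry group and number but could be matched to groups of samples only. The missing direction of variation was found over 10958 genes that reached 200 reads throughout. The script was tested on simulated data.

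The comparison, the gene lists and the rule for named genes were chosen with earlier results of these data known. The rule names the 15 largest rises and falls (called, mean log2 CPM of at least 2, no overlap), the 5 genes of smallest p in each direction, up to 5 members of smallest p and contrary members of each list described, and called hormone genes. Some of them are left out of the text. Marker genes, Rps10, Rplp0, Rplp2, Rpl38, Rps27 and Ctsa fall outside it and were chosen after their values were seen. Sequences are RefSeq's (GRCm38.p6) and gene positions those of GENCODE M21 (GRCm38, the build of mm10). Alternatives were quantile normalization, centring on housekeeping genes or their factor as a covariate, a mean log2 CPM of at least 1 (14024 genes), pseudocounts of 0.5 and 1, no trend, robust eBayes, array weights, voom on the whole numbers, an averaged 4-group model, the missing direction as a covariate, a threshold of 0.01 and each library left out. Python 3.11.15 with numpy 2.4.6, pandas 2.3.3, scipy 1.17.1 and matplotlib 3.10.9 handled tables and figures.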

Additional observations from a re-analysis of the deposited data

Results flagged for a closer look

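In 11 of 194 values tested per group (5.67%, where chance gives about 1 in 20), 1 library of a group of 4 lay far from the other 3. All 11 were vehicle libraries, since groups of 3 were not tested. In female vehicle 3, Xist was 3.04, against 7.92 to 8.35 in the others. The mean log2 CPM of Toll-like receptor and interleukin 1 genes was 4.43 there (others 5.07 to 5.20), that of sensory ganglion genes 1.74 (others −0.04 to 0.09) and that of steroid-responsive genes 5.98 (others 6.30 to 6.34). In female vehicle 4, Smyd1 was 1.25 (others 2.46 to 2.68), and the mean log2 CPM was 5.84 for complement genes (others 5.11 to 5.22) and 7.67 for homeostatic astrocyte genes (others 7.95 to 7.97). In male vehicle 4, Clec12a was 5.79 (others 5.20 to 5.28) and the mean of disease-associated microglia genes 8.09 (others 7.85 to 7.89). In male vehicle 2, the mean was 3.83 for cell cycle genes (others 3.27 to 3.35) and 6.42 for steroid-responsive genes (others 6.67 to 6.71). Leaving out any of these libraries kept the shared counts of calls within 1.5 times.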

How the results depend on the processing

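The counts of genes that rose and fell stayed within 1.5 times under every alternative except 2. With the housekeeping factor as a covariate limma called 0 rises and 0 falls, hence 0 and 0 without overlap, with a smallest adjusted p of 0.267 and a median SE of 0.148, against 0.0983 without it. At an adjusted p under 0.01, 2127 genes rose and 2254 fell. Leaving out 1 library at a time gave 2802 to 3850 rises and 2977 to 4235 falls, and a component difference of 57.4 to 82.4. Centring on housekeeping genes gave 3344 and 3780, and the missing direction as a covariate 2860 and 3275. Quantile normalization gave 4692 and 2929, kept 3379 of the 3470 rises and 2865 of the 3958 falls, and moved the median of all genes to 0.07. No paired analysis was made, as the methods describe random assignment of mice to treatment and no pairs.

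Of 162 named genes, the sign turned after quantile normalization for Mbp (−0.0785), and for 41 with the housekeeping factor, all without a call there. Falls turned to Acp5 0.30, Cd4 1.23, Hp 0.37, Lcn2 0.57, Cyp4f18 1.29, Slamf7 1.38, Arl11 0.14, Wfdc17 0.57, Cd74 0.0856, H2-Aa 0.0306, Clec12a 0.94, F13a1 0.12, Cyba 0.38, Cybb 0.80, Fcer1g 0.70, Tlr2 0.68, H2-Eb1 0.0205, H2-D1 0.15, H2-K1 0.43, Irf8 0.67, Zap70 0.33, Cd5 0.59, Csf3r 0.43, Cxcr4 0.22, Ccl5 0.24, Vim 0.43, Gfap 0.14, Fgf2 0.65, Serping1 0.18, Tspo 0.78, Hsd17b10 0.0118, Txnip 0.18, Mt1 0.23, Nfkbia 0.48, Mt2 0.50 and, not called before, Pecam1 0.36. Rises turned to Atp10b −0.0613, Hoxb8 −0.0158, Cx3cl1 −0.14, Akr1c14 −0.0487 and, not called before, Mbp −0.28. Medians of 29 of the 54 gene lists turned with it, against 0 to 4 under each other alternative. The cause was not tested, beyond the overlap of factor and treatment given above.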
